A study of Homo sapiens with 6 samples.

Results

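KREMEN1 and 9 other genes for Wnt co-receptors and their regulators were followed in kidney cancer cells with less ZNF395, a zinc finger protein. The 10 genes, out of 32357 in the count table, were taken by symbol: KREMEN1, KREMEN2, DKK1, DKK3, LRP5, LRP6, AXIN2, LGR4, RNF43 and ZNRF3. KREMEN1 was chosen by its counts, which were lower than control with both hairpins. Its values against control are therefore a description, given with no test.

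RNA was sequenced from A-498 and 786-O, established human clear cell renal cell carcinoma lines. Each line carried ZNF395 hairpin 3, ZNF395 hairpin 1 or a control construct, with 1 library per line and construct and 6 libraries in all. The short hairpin RNAs were delivered by retrovirus packaged in HEK293T cells, and transduced cells of all groups, controls included, were selected with puromycin. Separate cultures of the same line and construct are not among these libraries, so the lines stand in for replicates, p-values measure the spread between these libraries, and both hairpins are set against the same 2 control libraries.

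Wnt proteins signal by bringing a Frizzled receptor together with LRP5 or LRP6. Dickkopf proteins such as DKK1 bind LRP5 and LRP6, and the Kremen membrane proteins bind DKK1 and help to draw the LRP receptor into the cell. RNF43 and ZNRF3 are membrane ubiquitin ligases that mark Frizzled for removal, and R-spondins acting through LGR4 and its relatives remove the ligases. AXIN2 is a scaffold of the complex that degrades beta-catenin, and its gene is a common target of beta-catenin with TCF/LEF factors.

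Library totals ran from 77534125 to 99147218 counts. ZNF395 was at 14.3, 14.5 and 67.9 CPM with hairpin 3, with hairpin 1 and in the control of A-498, and at 13.5, 24.7 and 96.3 CPM in the same order in 786-O. CPM are counts scaled to library size, with TMM scaling factors. ZNF395 fell by 2.52 on the log2 scale with hairpin 3 (SE 0.213, edgeR quasi-likelihood adjusted p = 0.00973) and fell by 2.08 with hairpin 1 (SE 0.209, edgeR adjusted p = 0.0269). The fall with hairpin 1 did not pass without the 786-O control (-1.98, edgeR adjusted p = 0.06) or the A-498 control (-2.16, edgeR adjusted p = 0.0957), and 7 of 10 alternatives called it (adjusted p 2.27e-14 to 1). The 10 renal carcinoma and tubule markers were each at 1 CPM or more in at least 1 library, and their summed level was 2380 to 3340 CPM in knockdown libraries and 2730 to 3430 CPM in controls. VIM and KRT8 were the highest of them in every library. CA9 reached 1 CPM only in A-498 and had 0, 0 and 1 counts with hairpin 3, with hairpin 1 and in the control of 786-O. The 4 immune markers in the table summed to 0.04 to 0.337 CPM in knockdown libraries and 0.0632 to 0.401 CPM in controls, the 4 endothelial markers to 0.191 to 2.23 CPM and 0.253 to 1.63 CPM, and the 5 fibroblast markers to 6.8 to 41.3 CPM and 9.41 to 33 CPM, each with knockdown libraries before controls.

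The members form families, and the reads that could be assigned to the wrong relative depend on shared sequence. The longest exact stretches shared by the longest coding transcripts of each pair (GENCODE v29) are shown as a guide to that overlap. They set no bound on it, because near matches, other transcripts and other genes were not compared.
LRP5 and LRP6, in both coding sequences: tcatgtactggacagactggggaga
RNF43 and ZNRF3, in both coding sequences: tgtgccatctgtctggag
KREMEN1 and KREMEN2, outside both coding sequences: gaggctgaggcac
The runs are 25, 18 and 13 bases long. Some members also overlap other genes. Exons of KREMEN2 overlap PKMYT1, those of DKK1 overlap PRKG1-AS1 and those of RNF43 overlap TSPOAP1-AS1 on the opposite strand. RNF43 shares exonic positions with SUPT4H1 and AC004687.2, and AXIN2 with AC004805.1, on the same strand. The counts of these 4 members are uncertain to that extent, as are those of ZNF395, which shares exonic positions with FBXO16 on the same strand. KREMEN1 itself (GRCh38 chr22:29073078-29168333, plus strand) overlaps an antisense gene and a small nuclear RNA gene but shares no exon with either.

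DKK1 and RNF43 were the members at or near 0 counts in 786-O, and their promoter windows are shown as the reference sequence at the start of genes with little or no RNA. The windows run from 250 bases before to 50 bases after the start (RefSeq, GRCh38.p14), and 4 of the 10 members, also LRP5 and LGR4, have an entry. Capitals mark the TCF/LEF letters CTTTGNT, which were searched on both strands.
DKK1, chr10:52314031-52314330, plus strand: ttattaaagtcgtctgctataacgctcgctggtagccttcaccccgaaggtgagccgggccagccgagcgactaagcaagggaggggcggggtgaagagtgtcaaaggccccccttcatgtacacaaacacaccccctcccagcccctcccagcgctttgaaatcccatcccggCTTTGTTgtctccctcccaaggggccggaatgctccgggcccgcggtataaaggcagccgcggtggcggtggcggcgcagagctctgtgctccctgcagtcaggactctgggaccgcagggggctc
RNF43, upstream start, chr17:58417485-58417784, minus strand: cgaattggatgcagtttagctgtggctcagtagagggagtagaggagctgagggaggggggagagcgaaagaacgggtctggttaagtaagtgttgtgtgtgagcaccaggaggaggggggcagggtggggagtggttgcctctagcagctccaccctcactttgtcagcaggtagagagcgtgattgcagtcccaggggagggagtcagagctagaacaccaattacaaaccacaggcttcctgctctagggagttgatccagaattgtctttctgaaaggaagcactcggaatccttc
RNF43, downstream start, chr17:58402672-58402971, minus strand: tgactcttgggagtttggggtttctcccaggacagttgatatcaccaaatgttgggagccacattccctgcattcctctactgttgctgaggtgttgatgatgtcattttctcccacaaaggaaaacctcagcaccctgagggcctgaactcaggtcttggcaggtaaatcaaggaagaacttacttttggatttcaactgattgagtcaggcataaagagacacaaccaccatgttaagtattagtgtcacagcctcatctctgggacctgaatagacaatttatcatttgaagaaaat
The DKK1 window held 1 match, at offset -76 from the start, and the other members' windows held none. Of 35116 promoter windows of the same length, 15.4% held these letters. The hypoxia response core ACGTG, also searched on both strands and sharing no position with the match, was in none of the members' windows and in 21.4% of all. The DKK1 window had 63.7% G and C and 20 CpG, against a median of 58.7% and 14 CpG over all windows, and the RNF43 windows had 54.3% with 5 CpG and 43.7% with 0 CpG.

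KREMEN1 was lower than control in every knockdown library of both lines, and further below it with hairpin 1 than with hairpin 3. In A-498 it was at 9.87 CPM with hairpin 3, 4.49 CPM with hairpin 1 and 23.7 CPM in the control. In 786-O it was at 13.4 CPM with hairpin 3, 5.76 CPM with hairpin 1 and 28.7 CPM in the control. The same order held in both lines, and no knockdown library reached either control. As a percentage of the control of its line, KREMEN1 was at 41.6% with hairpin 3 in A-498 (95% counting interval 38.6 to 44.9%) and 46.9% in 786-O (43.5 to 50.5%). With hairpin 1 it was at 18.9% in A-498 (16.9 to 21.2%) and 20.1% in 786-O (18.1 to 22.2%). The intervals of the same hairpin overlapped between the lines and those of the hairpins did not, and they cover counting error only. The fitted log2 fold change over control was -1.18 with hairpin 3 (SE 0.147) and -2.36 with hairpin 1 (SE 0.154).

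The gap between the hairpins was not itself the rule that chose KREMEN1. It uses the same 4 knockdown libraries, however, so its p-value is not independent of that choice. KREMEN1 was higher with hairpin 3 than with hairpin 1 by 1.18 on the log2 scale (SE 0.15, 95% interval 0.82 to 1.54, edgeR quasi-likelihood adjusted p = 0.0108), in both lines. ZNF395 itself differed between the hairpins by -0.44 (SE 0.205, 95% interval -0.93 to 0.04, edgeR adjusted p = 0.217), and passed without the A-498 library of hairpin 3 (-0.81, edgeR adjusted p = 0.0129, range over 10 alternatives 0.0129 to 1). It was at 21% of control with hairpin 3 in A-498 and 14% in 786-O, and at 21.4% with hairpin 1 in A-498 and 25.6% in 786-O. The hairpin with the lower KREMEN1 was thus not the one with the lower ZNF395 in 786-O, and in A-498 ZNF395 was at nearly the same level with both.

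**Figure D1:**
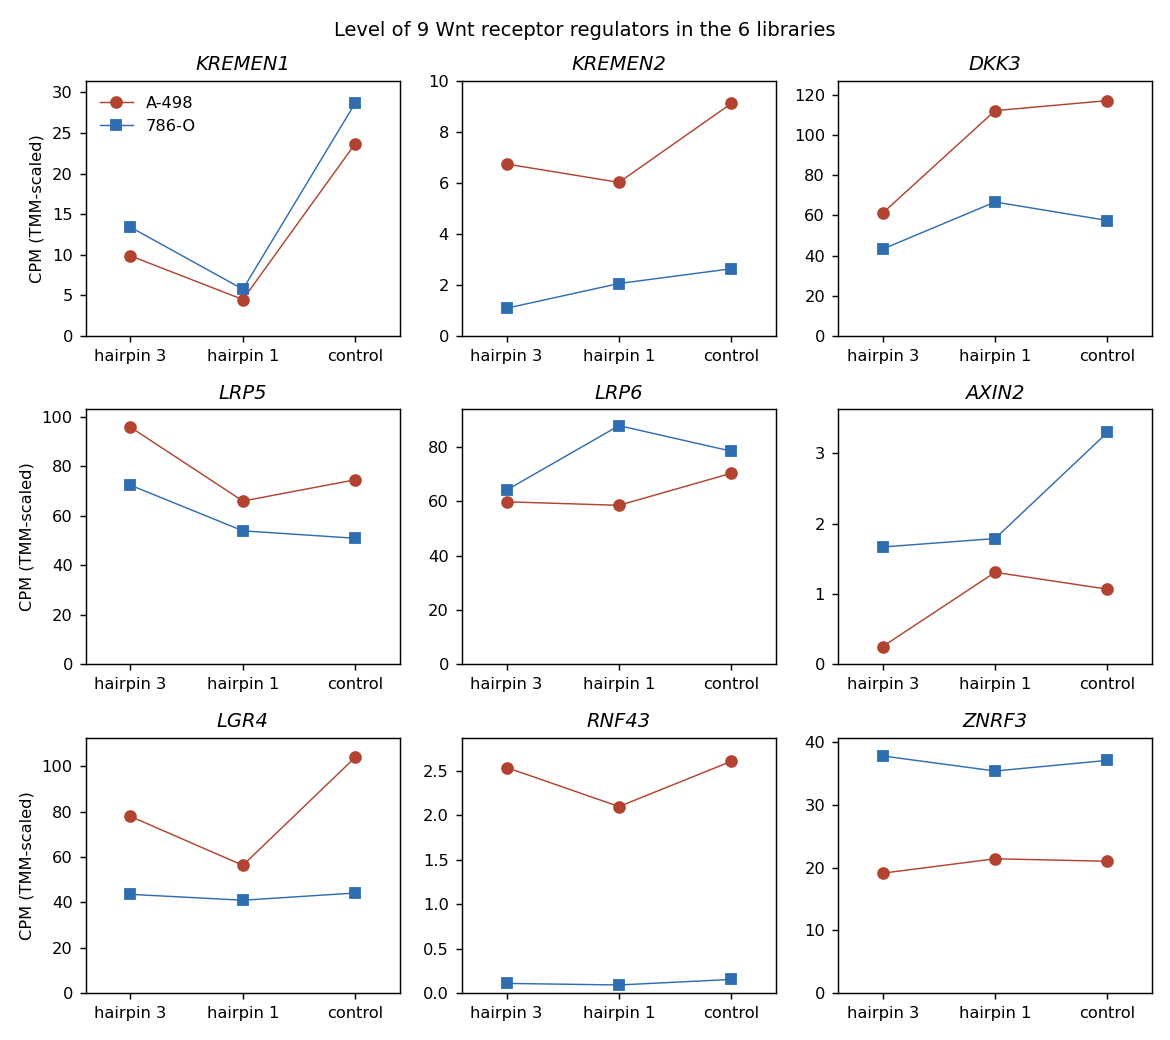
Level in CPM, TMM-scaled, of the 9 members that passed the filter on low counts, with hairpin 3, hairpin 1 and control along each horizontal axis. Circles are A-498 and squares 786-O, each point is 1 library, and lines only join the libraries of a line. KREMEN1 is at 4.49 to 13.4 CPM in the knockdown libraries and at 23.7 and 28.7 CPM in the controls, while ZNRF3 lies at 19.1 to 21.4 CPM in all A-498 libraries and 35.4 to 37.8 CPM in all 786-O libraries.

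KREMEN2, the close relative of KREMEN1 that also binds Dickkopf proteins, was at 6.75, 6.03 and 9.13 CPM with hairpin 3, with hairpin 1 and in the control of A-498. In 786-O it was at 1.09, 2.06 and 2.64 CPM in the same order. All 4 knockdown libraries lay below the control of their line, most clearly with hairpin 3 in 786-O (41.3% of control, 95% counting interval 31.6 to 53.6%). KREMEN2 did not pass the test with hairpin 3 (log2 fold change -0.78, SE 0.283, 95% interval -1.46 to -0.11, edgeR adjusted p = 0.143) or with hairpin 1 (-0.48, SE 0.281, 95% interval -1.15 to 0.19, edgeR adjusted p = 0.625). Without the A-498 library of hairpin 3, the value with hairpin 3 was -1.34 and passed (edgeR adjusted p = 0.0107, range over 10 alternatives 0.0107 to 1).

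The secreted Dickkopf members were at opposite ends of the range of levels. DKK1, the ligand that Kremen proteins bind, had 2, 2 and 0 counts with hairpin 3, with hairpin 1 and in the control of A-498, and 0, 1 and 0 counts in 786-O. It did not pass the filter, and 3 counts, the limit that a count of 0 allows, is 0.0301 to 0.04 CPM in these libraries. Its level was thus not distinguishable from 0 at this depth in any library. DKK3, a divergent relative of DKK1, was at 61.1, 112 and 117 CPM with hairpin 3, with hairpin 1 and in the control of A-498. In 786-O it was at 43.2, 66.6 and 57.4 CPM in the same order, so that the hairpin 3 library was the lowest of each line. DKK3 fell with hairpin 3 by 0.68 on the log2 scale (SE 0.152, edgeR quasi-likelihood adjusted p = 0.0483). With hairpin 1 its log2 fold change was 0.07 (SE 0.151, 95% interval -0.29 to 0.43, edgeR adjusted p = 0.921). The difference between hairpin 3 and hairpin 1 was -0.74 (SE 0.152, edgeR adjusted p = 0.0327). The fall with hairpin 3 did not pass without the 786-O control (-0.85, edgeR adjusted p = 0.11), the A-498 control (-0.47, edgeR adjusted p = 0.409) or the A-498 library of hairpin 3 (-0.48, edgeR adjusted p = 0.0812), and the range over 10 alternatives was 0.00415 to 1. The hairpin difference did not pass without either hairpin 1 library (edgeR adjusted p = 0.0984 without 786-O and 0.075 without A-498) or without the A-498 library of hairpin 3 (edgeR adjusted p = 0.0504, range 0.00119 to 1).

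LRP5 and LRP6 are the co-receptors that Kremen and Dickkopf proteins act on. LRP5 was at 95.7, 65.9 and 74.5 CPM with hairpin 3, with hairpin 1 and in the control of A-498, and at 72.3, 53.9 and 50.9 CPM in 786-O. The hairpin 3 library was the highest in each line. Its log2 fold change with hairpin 3 was 0.43 (SE 0.123, 95% interval 0.14 to 0.72, edgeR adjusted p = 0.0836), and hairpin 3 and hairpin 1 differed by 0.48 (SE 0.123, edgeR adjusted p = 0.0576), neither past the threshold. DESeq2 called both (adjusted p = 0.0363 and 0.0166, with ranges over the alternatives of 0.0363 to 1 and 0.0166 to 1). With no filter on low counts edgeR also called the LRP5 difference between the hairpins (0.47, edgeR adjusted p = 0.0441). LRP6 was at 59.8, 58.5 and 70.3 CPM with hairpin 3, with hairpin 1 and in the control of A-498, and at 64.1, 87.8 and 78.4 CPM in 786-O. Its log2 fold change was -0.26 with hairpin 3 (SE 0.151, 95% interval -0.62 to 0.1, edgeR adjusted p = 0.333) and -0.04 with hairpin 1 (SE 0.151, 95% interval -0.4 to 0.31, edgeR adjusted p = 0.951).

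LGR4, the R-spondin receptor, was at 77.9, 56.3 and 104 CPM with hairpin 3, with hairpin 1 and in the control of A-498, and at 43.5, 40.9 and 44.1 CPM in 786-O. With hairpin 3 it was at 75.2% of control in A-498 and 98.6% in 786-O, and with hairpin 1 at 54.2% in A-498 and 92.8% in 786-O. The knockdown response of A-498 minus that of 786-O was -0.56 (SE 0.423, 95% interval -1.6 to 0.47, edgeR adjusted p = 1). LGR4 passed with neither hairpin, at -0.23 with hairpin 3 (95% interval -0.67 to 0.21, edgeR adjusted p = 0.489) and -0.5 with hairpin 1 (95% interval -0.94 to -0.05, edgeR adjusted p = 0.418).

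ZNRF3, the ligase encoded next to KREMEN1 but for 1 gene on chromosome 22, was at 19.1, 21.4 and 21 CPM with hairpin 3, with hairpin 1 and in the control of A-498, and at 37.8, 35.4 and 37.1 CPM in 786-O. Its log2 fold change was -0.05 with hairpin 3 (SE 0.133, 95% interval -0.37 to 0.26, edgeR adjusted p = 0.84) and -0.02 with hairpin 1 (SE 0.133, 95% interval -0.33 to 0.3, edgeR adjusted p = 0.977). RNF43, the other ligase, was at 2.54, 2.1 and 2.61 CPM in A-498 and at 0.107, 0.0894 and 0.152 CPM in 786-O, where the counts were 8, 7 and 12. Its log2 fold change was -0.15 with hairpin 3 (SE 0.29, 95% interval -0.84 to 0.54, edgeR adjusted p = 0.823) and -0.42 with hairpin 1 (SE 0.295, 95% interval -1.12 to 0.28, edgeR adjusted p = 0.692).

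AXIN2 was at 0.255, 1.31 and 1.07 CPM with hairpin 3, with hairpin 1 and in the control of A-498, and at 1.67, 1.79 and 3.3 CPM in 786-O. In A-498 the hairpin 3 library stood apart at 25 counts, against 107 in the control, and in 786-O both hairpins lay below the control. The log2 fold change was -1.35 with hairpin 3 (SE 0.48, 95% interval -2.49 to -0.21, edgeR adjusted p = 0.138) and -0.25 with hairpin 1 (SE 0.468, 95% interval -1.36 to 0.86, edgeR adjusted p = 0.907). With no filter on low counts, AXIN2 passed with hairpin 3 (-1.36, edgeR adjusted p = 0.0233, range over 10 alternatives 0.0233 to 1). It also passed without the A-498 library of hairpin 1 (edgeR adjusted p = 0.0254) and without the 786-O library of hairpin 3 (-2.37, edgeR adjusted p = 0.0241).

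KREMEN1, chosen for its values against control, is left out of the counts against control. Of the 8 other members tested, 1 was called with hairpin 3 (DKK3, lower), where 6.71% of 20144 genes were called, 4.16% lower and 2.55% higher. With hairpin 1 edgeR called 0 of the 8 (1, LGR4, had an unadjusted p under 0.05, and DESeq2 called 0), where 0.149% of genes were called, 0.109% lower and 0.0397% higher. Over all 20144 genes, 2106 had an unadjusted p under 0.05 with hairpin 1. Between hairpin 3 and hairpin 1, 2 of the 9 tested members were called, KREMEN1 higher and DKK3 lower, where 9.48% of genes were called, 4.09% higher and 5.4% lower. With KREMEN1 left out here too, 1 of the 8 was called. The other tested members differed between hairpin 3 and hairpin 1 by -1.1 for AXIN2 to 0.48 for LRP5. The median log2 fold change of the 8 was -0.24 with hairpin 3, against -0.01 over all genes, and -0.15 with hairpin 1, against -0.004 over all genes. Beside KREMEN1, KREMEN2, LGR4 and RNF43 were below the control of their line in all 4 knockdown libraries, as were 14% of all genes. No member was above its control in all 4. Some of these gaps lay within counting error. LGR4 with hairpin 3 in 786-O was at 98.6% of control (counting interval 94 to 103%). RNF43 was at 97.6% with hairpin 3 in A-498 (81.7 to 117%). In 786-O RNF43 was at 70.2% with hairpin 3 (24.9 to 187%) and 58.9% with hairpin 1 (19.6 to 162%). The other counting intervals of KREMEN2, LGR4 and RNF43 ended below control. With the hairpins pooled no gene was called by edgeR (0%, with 1013 at an unadjusted p under 0.05 and 92 called by DESeq2), and the members' log2 fold changes ran from -1.65 for KREMEN1 to 0.21 for LRP5. In the authors' deposited table, which sets control over knockdown, the log2 fold change of KREMEN1 was 1.06 with a standard error of 0.275, and the 8 other tested members ran from -0.17 for LRP5 to 0.48 for KREMEN2.

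**Figure D2:**
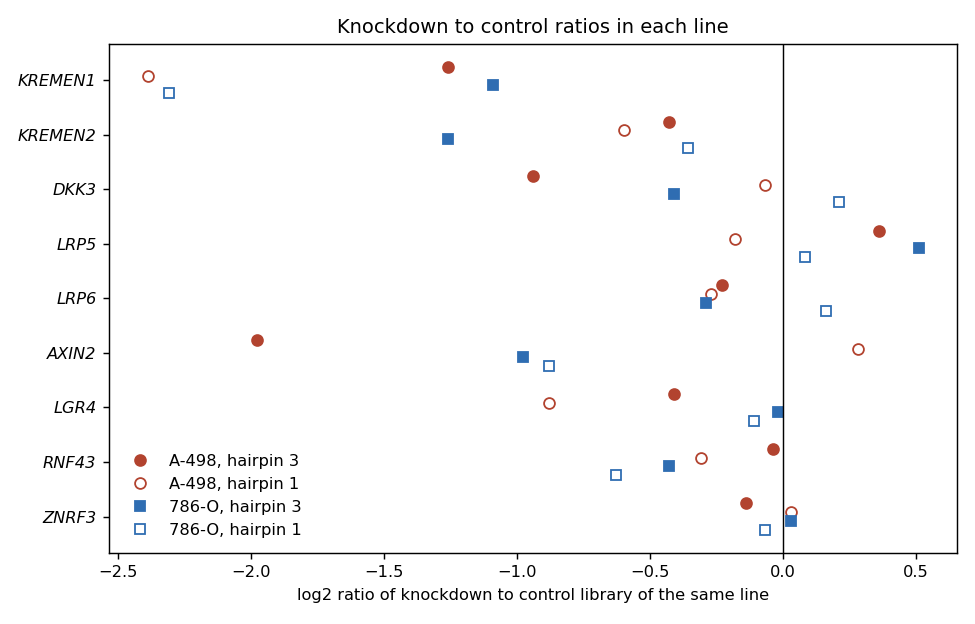
Log2 ratio of each knockdown library to the control library of its line (horizontal axis) for 9 members, with log2 CPM computed at a prior count of 2. Circles are A-498, squares 786-O, filled for hairpin 3 and open for hairpin 1. KREMEN1 lies at -1.26 and -1.09 with hairpin 3 and at -2.39 and -2.31 with hairpin 1, and AXIN2 spreads most between the libraries of A-498, at -1.98 and 0.28.

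The lines differed in most members. A-498 was higher than 786-O in 5 of the 9 tested members and lower in 3 by the edgeR test, where 32.1% of all genes were higher, 29.7% lower and 61.9% called in all. KREMEN2 was higher in A-498 by 1.97 on the log2 scale (SE 0.238, edgeR adjusted p = 0.000455), LGR4 by 0.85 (SE 0.153, edgeR adjusted p = 0.00284), DKK3 by 0.76 (SE 0.124, edgeR adjusted p = 0.00179) and LRP5 by 0.41 (SE 0.1, edgeR adjusted p = 0.00991). RNF43 was higher by 4.37 (SE 0.262), but in 786-O only 1 of its 3 libraries exceeded the filter's 0.125 CPM, against all 3 in A-498. It entered the test through A-498, and its difference gives no support to the count. ZNRF3 was lower in A-498 (-0.84, SE 0.109, edgeR adjusted p = 0.000625), as were AXIN2 (-1.51, SE 0.399, edgeR adjusted p = 0.0144) and KREMEN1 (-0.36, SE 0.12, edgeR adjusted p = 0.0361). LRP6 did not pass (-0.28, SE 0.124, edgeR adjusted p = 0.0858). It passed with no filter on low counts (-0.32, edgeR adjusted p = 0.0487), without the 786-O library of hairpin 3 (-0.38, edgeR adjusted p = 0.0309) and without the A-498 one (-0.37, edgeR adjusted p = 0.0308), with a range over 10 alternatives of 0.0308 to 0.451.

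For KREMEN1 the A-498 level was below that of 786-O with each of the 3 constructs, at 9.87 against 13.4 CPM with hairpin 3, 4.49 against 5.76 CPM with hairpin 1 and 23.7 against 28.7 CPM in the controls, but the lines' ranges overlapped. The call did not hold when any 1 of the 6 libraries was left out (adjusted p 0.0556 to 0.174 by edgeR, log2 fold change -0.41 to -0.31), nor with the hairpins pooled (-0.37, edgeR adjusted p = 0.476). LRP5 did not pass without the 786-O control (edgeR adjusted p = 0.0909), without the A-498 control (edgeR adjusted p = 0.108) or with the hairpins pooled (edgeR adjusted p = 0.125, range over 10 alternatives 0.00211 to 0.125). With the hairpins pooled, AXIN2 (edgeR adjusted p = 0.0903) and DKK3 (edgeR adjusted p = 0.0572) did not pass either. The 3 A-498 libraries were all above the 3 786-O libraries for KREMEN2, LGR4 and RNF43, as for 31.1% of all genes, and all below for AXIN2 and ZNRF3, as for 28% of all genes. No gap in knockdown response between the lines was called for a member or any other gene by edgeR (0%, with 159 genes at an unadjusted p under 0.05, and 0 called by DESeq2).

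**Figure D3:**
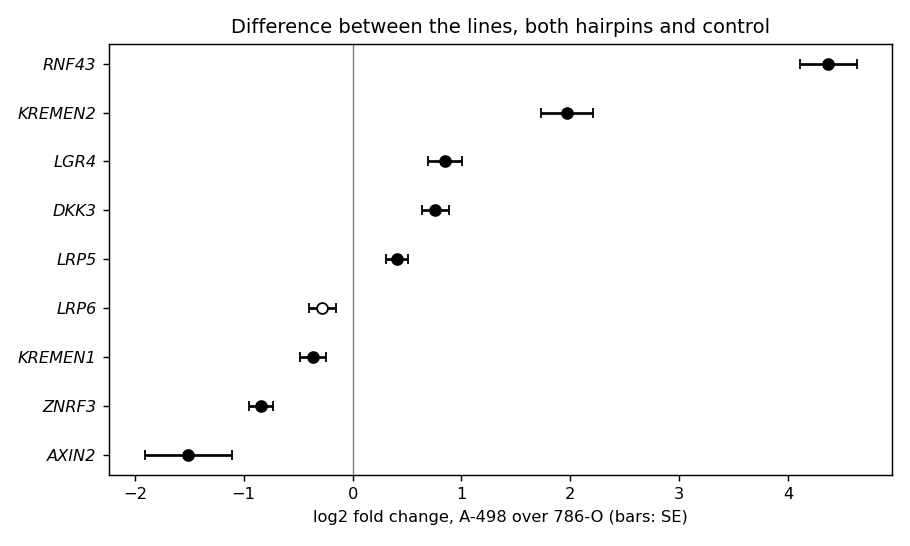
Log2 fold change of A-498 over 786-O for 9 members from the model with line and construct over 6 libraries, with bars for the SE. Filled points passed an adjusted p under 0.05, and the open point, LRP6 at -0.28, did not; the values run from -1.51 for AXIN2 to 4.37 for RNF43.

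Levels per kilobase of exon put the members in one scale. In A-498 the median over the 3 libraries was highest for DKK3 (22.1 CPM per kb), followed by LGR4 (12.3), LRP5 (12.1), LRP6 (5.79), ZNRF3 (3.02), KREMEN2 (2.58), KREMEN1 (1.24), RNF43 (0.339), AXIN2 (0.205) and DKK1 (0.00926), all as CPM per kb. Neighbours whose libraries overlapped were DKK3 with LGR4, LGR4 with LRP5, ZNRF3 with KREMEN2 and KREMEN2 with KREMEN1. In 786-O the order was DKK3 (11.3 CPM per kb), LRP5 (8.75), LRP6 (7.58), LGR4 (6.86), ZNRF3 (5.32), KREMEN1 (1.68), KREMEN2 (0.786), AXIN2 (0.342), RNF43 (0.0142) and DKK1 (0), with overlap between neighbours from DKK3 down to LGR4 and from KREMEN1 down to AXIN2. KREMEN2 thus stood above KREMEN1 in A-498 and below it in 786-O by the medians, but in each line their libraries overlapped. The exon lengths are those of GENCODE v29, while the submitters' processing notes name hg19, so the order is approximate.

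The genes most like KREMEN1 across the 6 libraries were ARHGEF18 (Pearson r 0.9981 of log2 CPM centred on each line), NAGPA (0.9925), ACVR1B (0.9902), GAL3ST1 (0.9881) and SCN2A (0.9803), among 2953 genes that averaged 5 CPM or more and had a centred SD of 0.3 or more. These r values describe 6 libraries that share 2 controls, 2 hairpins and 2 lines, and carry no test. ACVR1B encodes an activin receptor. GAL3ST1 makes sulfatide, and NAGPA acts in the mannose 6-phosphate tagging of lysosomal enzymes. NAGPA was, relative to control, at 65.5% in A-498 and 65.8% in 786-O with hairpin 3, and at 34% in A-498 and 36.4% in 786-O with hairpin 1. GAL3ST1 was at 56.2, 41.9 and 92.3 CPM with hairpin 3, with hairpin 1 and in the control of A-498, and at 196, 149 and 315 CPM in 786-O. SCN2A, a sodium channel, had 7, 5 and 10 counts in the same order in 786-O, so its likeness rests on A-498 (16.5, 10.5 and 23.9 CPM). All 5 were lower with hairpin 1 than with hairpin 3 and lower with hairpin 3 than in the control, in both lines, which is the order by which they were chosen. Among the members, which were not held to these limits on level and SD, the r with KREMEN1 was 0.899 for RNF43, 0.797 for LGR4 and 0.457 for KREMEN2. It was -0.0742 to 0.167 for the others tested. RNF43 had 8, 7 and 12 counts with hairpin 3, with hairpin 1 and in the control of 786-O, so its r rests partly on counts near 0.

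**Figure D4:**
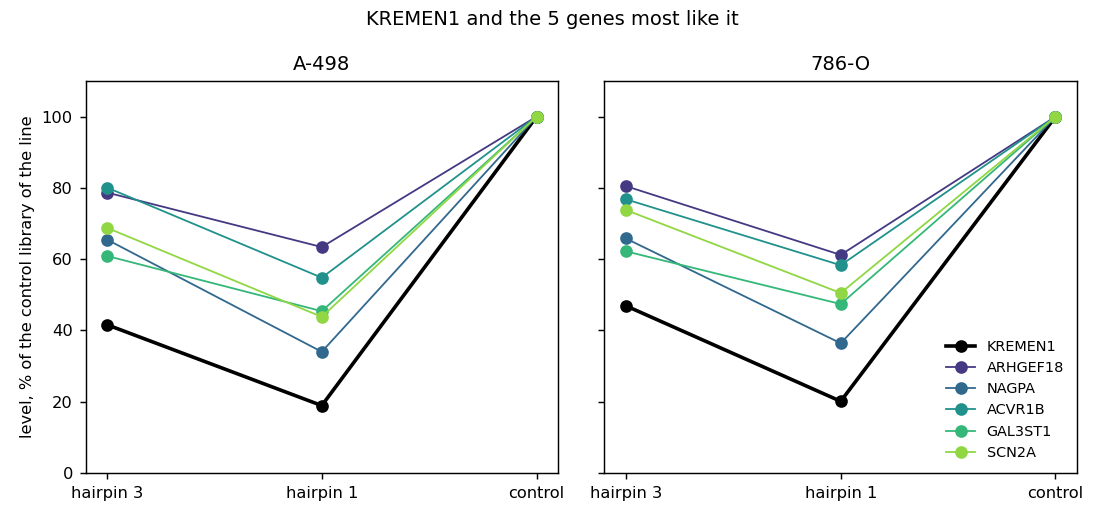
Level of KREMEN1 (black) and of the 5 genes most like it, as a percentage of the control library of the line (vertical axis), for hairpin 3, hairpin 1 and control in A-498 (left) and 786-O (right). KREMEN1 has the lowest points in both lines, 18.9% and 20.1% with hairpin 1, and ARHGEF18 the shallowest course, at 63.4% and 61.2%.

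The remaining Wnt pathway was taken as 8 lists of 111 symbols, of which 102 were in the table and 84 were tested. With hairpin 3, 6 of the 84 rose and 3 fell, where 2.55% of all genes rose and 4.16% fell, with a median log2 fold change of 0.05 against -0.01 over all genes. With hairpin 1 edgeR called 0 of 84, where 0.149% of all genes were called, with a median of -0.06 against -0.004 over all genes. Of the 84, 10 had an unadjusted p under 0.05 with hairpin 1, as did 2106 of all 20144 tested genes. Among 13 Frizzled and other receptors, FZD2 fell by 0.81 with hairpin 3 (SE 0.154, edgeR adjusted p = 0.0307) and FZD6 fell by 0.6 (SE 0.121, edgeR adjusted p = 0.0364), while ROR1, a receptor of WNT5A, rose by 0.78 (SE 0.154, edgeR adjusted p = 0.0345). FZD2 was at 14.4, 14.6 and 23.7 CPM with hairpin 3, with hairpin 1 and in the control of A-498, and at 5.34, 6.2 and 10.1 CPM in 786-O. All 4 knockdown libraries lay below their control. With hairpin 1 the log2 fold change was -0.7 (SE 0.154, edgeR adjusted p = 0.196), and hairpin 3 and hairpin 1 differed by -0.11 (SE 0.154, 95% interval -0.48 to 0.25, edgeR adjusted p = 0.677).

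TPBG, a membrane protein that inhibits Wnt signalling to beta-catenin, rose by 1.55 with hairpin 3 (SE 0.153, edgeR adjusted p = 0.012) and was the 1 called gene of the 8 tested antagonists. It was at 115, 42.2 and 46.8 CPM with hairpin 3, with hairpin 1 and in the control of A-498, and at 207, 64.1 and 59.3 CPM in 786-O. The hairpin 3 library was the highest in each line, and hairpin 3 and hairpin 1 differed by 1.58 (SE 0.153, edgeR adjusted p = 0.00821). In the list of Wnt secretion and LRP maturation, MESDC1 rose by 1.5 with hairpin 3 (SE 0.123, edgeR adjusted p = 0.00973). MESDC1, also called TLNRD1, encodes an actin-bundling protein and not the LRP chaperone. It stayed in the fixed list and is included in the counts of the 84 genes. Its neighbour MESDC2 encodes the chaperone of LRP5 and LRP6, and had a log2 fold change of 0.16 (SE 0.134, edgeR adjusted p = 0.505). GPC4, a glypican, fell by 0.57 (SE 0.12, edgeR adjusted p = 0.0398). The beta-catenin cofactors BCL9 (0.51, edgeR adjusted p = 0.0462) and BCL9L (0.57, edgeR adjusted p = 0.0463) rose with hairpin 3, as did MYC, 1 of 13 tested target genes (0.58, SE 0.129, edgeR adjusted p = 0.046). None of 10 ligands and none of 22 Dishevelled and destruction complex genes was called with either hairpin by edgeR (0 and 5 of them with hairpin 3, and 0 and 0 with hairpin 1, had an unadjusted p under 0.05). Over all 20144 tested genes, 5205 were under that p with hairpin 3 and 2106 with hairpin 1, and 6.71% and 0.149% were called. Of the 9 genes called with hairpin 3, TPBG and MESDC1 were the 2 still called when the 786-O control was left out, and TPBG the 1 still called when the A-498 control was.

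Between hairpin 3 and hairpin 1, 10 of the 84 genes were higher and 4 lower, where 4.09% of all genes were higher and 5.4% lower. Of the receptors 4 were higher with hairpin 3, among them FZD1 (1.01, SE 0.133, edgeR adjusted p = 0.0115), FZD5 and RYK, and FZD6 was lower (-0.57, SE 0.121, edgeR adjusted p = 0.0363). Among the target genes, CCND1, which encodes cyclin D1, was higher (0.83, SE 0.132, edgeR adjusted p = 0.0182), while TCF7, TNFRSF19 and NKD1, an inhibitor of Dishevelled, were lower. TCF7 in A-498 was at 41.3 CPM with hairpin 3 and 78.5 CPM with hairpin 1, and in 786-O at 9.83 CPM with hairpin 3 and 18.3 CPM with hairpin 1. NKD1 was at 0.133 CPM with hairpin 3 and 0.549 CPM with hairpin 1 in A-498, and in 786-O it had 1 count with hairpin 3 and 3 with hairpin 1. It entered the test through A-498, which has 1 library per construct, so its call has no support from 786-O. The call was close to the threshold (-1.95, SE 0.472, edgeR adjusted p = 0.0498), and 3 of 10 alternatives made it. TCF7, TNFRSF19 and NKD1 were named for being lower with hairpin 3 than with hairpin 1, so that order is built in. They and AXIN2 were each lowest with hairpin 3 in both lines, in part by small gaps. TCF7 was at 42.3 CPM in the A-498 control, and AXIN2 in 786-O was at 1.67 CPM with hairpin 3 and 1.79 CPM with hairpin 1. The log2 difference of AXIN2 between hairpin 3 and hairpin 1 was -1.1 (SE 0.495, edgeR adjusted p = 0.205). With 1 library left out the AXIN2 difference ranged from -2.02 to -0.33, and it passed without the 786-O library of hairpin 3 (-2.02, edgeR adjusted p = 0.0307, range over 10 alternatives 0.0307 to 1). CCND1, at 296 CPM with hairpin 3 and 165 CPM with hairpin 1 in A-498, went the other way. Of the 13 tested target genes outside the members, 7 had a difference above 0, and the median was 0.29 against -0.008 over all genes. The median of the target genes was thus not lower with hairpin 3 than with hairpin 1, though 1 was called higher and 3 lower. Against control their median was -0.15 with hairpin 3 and -0.38 with hairpin 1. Over all genes it was -0.01 and -0.004. Of 13 genes of these lists chosen by their smallest p in this comparison, 5 were still called when the 786-O library of hairpin 1 was left out and 3 when the A-498 one was.

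**Figure D5:**
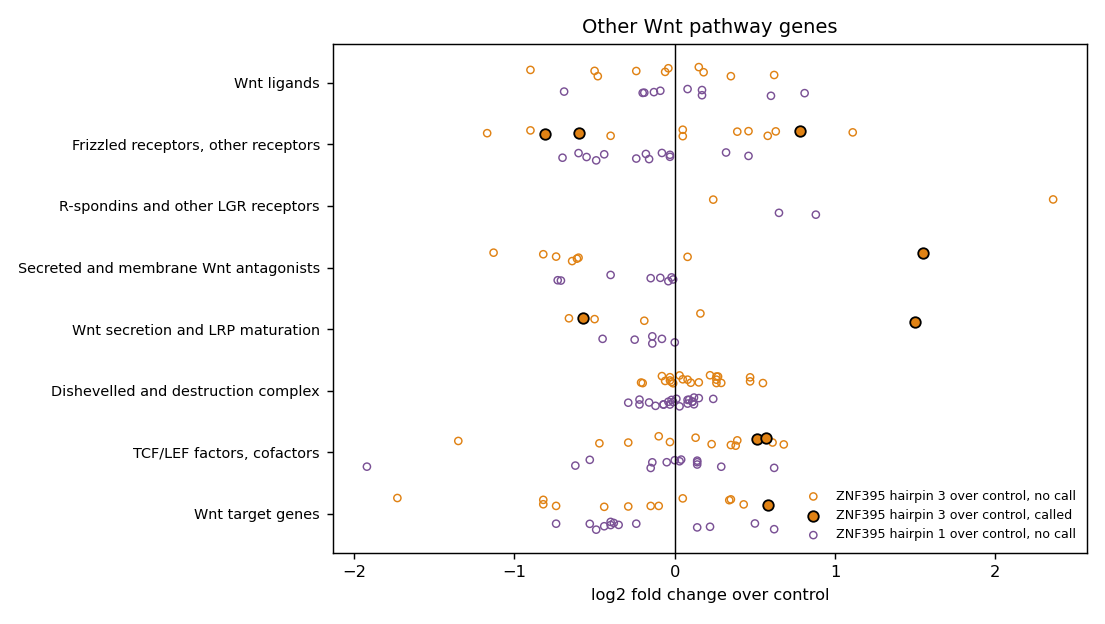
Log2 fold change over control (horizontal axis) of the tested genes of 8 Wnt pathway lists, with hairpin 3 in orange above hairpin 1 in purple in each list. Filled points passed an adjusted p under 0.05. TPBG at 1.55 and MESDC1 at 1.5 lie farthest to the right among the called genes, and all called points belong to hairpin 3. MESDC1 is in the fixed list but encodes an actin-bundling protein.

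Of the 84 genes, 31 were higher and 31 lower in A-498 than in 786-O, where 32.1% of all genes were higher and 29.7% lower. The filter asks for 2 libraries above 0.125 CPM, and 11 of the 31 higher genes had fewer than 2 such libraries in 786-O (RSPO3 among them) and 3 of the 31 lower genes fewer than 2 in A-498. These entered the test through the line where they were high and give the counts no support. Members of the same families were on opposite sides. WNT3 was higher in A-498 by 3.67 (SE 0.181, edgeR adjusted p = 9.76e-06) and WNT7B was lower by -3.98 (SE 0.292, edgeR adjusted p = 5.08e-05). PORCN, the acyltransferase that lipid-modifies Wnt proteins, was lower (-2.80, SE 0.143, edgeR adjusted p = 1.11e-05), and WLS, which carries them to the surface, was higher (2.97, SE 0.158, edgeR adjusted p = 1.32e-05). ROR2 was at 0.0511, 0.162 and 0.181 CPM with hairpin 3, with hairpin 1 and in the control of A-498, and at 14.2, 10.4 and 15.4 CPM in 786-O. LEF1, a TCF/LEF factor, was higher in A-498 (2.49, SE 0.181, edgeR adjusted p = 4.93e-05), while AXIN2 was lower there. RSPO3, which encodes an R-spondin, was at 0.971, 1.24 and 0.822 CPM in A-498 and had 0, 1 and 0 counts in 786-O, the line in which RNF43 was also near 0.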

How the data were processed

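RNA-seq of 6 libraries was analysed. The authors deposited whole-number counts per gene symbol, together with a mean signal per gene over the libraries, a log2 fold change, its standard error and Wald statistic (a score each) and a p-value and adjusted p-value, all from DESeq2 per the file headers. STAR, DESeq2, hg19 and hs37d5 are named in the submitters' processing notes without roles. How reads were counted, with which annotation and whether by strand is not given in the sources used, so reads of overlapping genes may be shared. Per the labels' protocols, libraries came from a TruSeq Stranded Total RNA kit. The table holds 32357 genes with a summed count of at least 2, and 0 per-sample columns were left unassigned.

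The 20144 genes that passed edgeR's expression filter (minimum count 10 over constructs) were TMM-scaled and tested by quasi-likelihood F tests (edgeR 4.0.16 with limma 3.58.1, R 4.3.3). Genes with a Benjamini-Hochberg adjusted p under 0.05 over all tested genes were called. The hairpin and line comparisons used a model of line and construct (2 residual degrees of freedom), pooled knockdown from line and status (3), and the difference between lines from 4 means (2). Libraries of a line come from the same cells, so line is the pairing and is in the models. Standard errors derive from F, and intervals from the moderated degrees of freedom. Log2 CPM used a prior count of 2, and counting intervals are 95% and, with the 3-count limit for 0, cover counting error only.

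The members and lists were chosen with earlier results of these data known. All 10 members are named, with the genes called in each list, up to 4 per list and comparison by smallest p, and the 5 genes of highest r with KREMEN1. MESDC2 was named after its values were seen. DESeq2 1.42.0, its size factors, no filter, each library left out, and models without line or with the hairpin as a block were alternatives. The tests were tried on simulated data with effects larger than most seen here, planted in genes of higher level, and with the same fixed spread for all genes. That simulation thus does not cover small changes or low counts.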

Additional observations from a re-analysis of the deposited data

How the results depend on the processing

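Counts of genes called moved most. DESeq2 called 474 genes with hairpin 1, 2623 with hairpin 3, 2990 between hairpin 3 and hairpin 1 and 92 with the hairpins pooled. With no filter on low counts edgeR called 478, 2654 and 3117. With no replicate block, the models without line, edgeR called 0, 0 and 0 in the same 3 comparisons, with 146, 610 and 731 at an unadjusted p under 0.05. The replicate block by hairpin gave 26 calls for the pooled knockdown, against 0 without it, and a KREMEN1 log2 fold change of -1.77, against -1.65. Leaving out 1 library gave 2 to 756 calls with hairpin 1, 31 to 2538 with hairpin 3, 645 to 3189 between the hairpins, and 0 in each fit for the pooled knockdown. With hairpin 3 the lowest came without the A-498 control (31) and the next without the 786-O control (226); with hairpin 1 the lowest came without the A-498 control (2) and the highest without the A-498 library of hairpin 3 (756). The difference between hairpins was lowest without the 786-O library of hairpin 1 (645) and highest without the 786-O library of hairpin 3 (3189). The line comparison gave 9501 to 13665 calls over its alternatives. The difference between lines gave 0 in each fit, and could not be estimated without a control.

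KREMEN1 hairpin 3 against hairpin 1 was 1.14 to 1.24 over 10 alternatives and did not pass without line (1.18, edgeR adjusted p = 1). With 1 library left out, values that changed sign, none of them called, ranged with hairpin 1 from -1.12 to 0.51 for AXIN2, -0.11 to 0.27 for DKK3, -0.15 to 0.05 for LRP5, -0.29 to 0.18 for LRP6 and -0.11 to 0.06 for ZNRF3. With hairpin 3 they ranged from -0.48 to 0.08 for LGR4 and -0.14 to 0.05 for ZNRF3, and between hairpin 3 and hairpin 1 from -0.84 to 0.13 for KREMEN2, -0.01 to 0.58 for LGR4, -0.44 to 0.02 for LRP6 and -0.12 to 0.07 for ZNRF3. For the difference between lines in the knockdown response they ranged from -1.13 to 1.22 for AXIN2, -0.87 to 0.02 for DKK3, -0.82 to 0.63 for KREMEN1, -0.12 to 0.81 for KREMEN2, -0.49 to 0.07 for LRP5, -0.38 to 0.09 for LRP6, -0.24 to 0.65 for ZNF395 and -0.12 to 0.05 for ZNRF3. No other alternative changed a sign. The causes were not tested. At this depth DKK1 in both lines and RNF43 in 786-O were too low to show a change.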

Other observations

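The protein-coding genes on either side of KREMEN1 on chromosome 22 (GENCODE v29, GRCh38) had values of their own. C22orf31 and ZNRF3 lie before it, ZNRF3 at a distance of 15591 bases, with XBP1, a transcription factor of the unfolded protein response, 272481 bases away, and EMID1, RHBDD3 and EWSR1 lie after it. C22orf31 was not analysed here. XBP1 was at 138, 109 and 77.7 CPM with hairpin 3, with hairpin 1 and in the control of A-498, and at 258, 125 and 135 CPM in 786-O, and rose with hairpin 3 (log2 fold change 0.88, SE 0.185, edgeR adjusted p = 0.0393). EMID1, a secreted EMI-domain protein gene, was at 1.09, 3.57 and 7.07 CPM in A-498 and had no more than 3 counts in any 786-O library. Its fitted value was -2.67 with hairpin 3 (SE 0.437, edgeR adjusted p = 0.0227) and -1.08 with hairpin 1 (SE 0.396, edgeR adjusted p = 0.412). EMID1 entered the test through A-498, which has 1 library per construct. These values thus rest on 107 counts with hairpin 3, 286 with hairpin 1 and 705 in the control of A-498. The call with hairpin 3 has no support from 786-O. EMID1 was thus lower with hairpin 3 than with hairpin 1 in A-498, the reverse of the order of KREMEN1. RHBDD3 (-0.12 with hairpin 3 and -0.34 with hairpin 1) and EWSR1 (-0.04 and -0.11) were not called by edgeR, with adjusted p of 0.437 or more. The neighbours were set beside KREMEN1 after its values were known.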
